A study of Mus musculus with 4 samples.

Results

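Mitochondrially encoded transcripts of the respiratory chain were represented by mt-Nd4, mt-Co1 and mt-Cytb, together with Gm11410, a nuclear copy of mt-Cytb. These 4 genes were taken by their Ensembl gene IDs from per-library tables that list 373 named genes in 406 rows, and each gene had 1 row. The cells were NIT-1, a mouse pancreatic β cell line from the NOD/Lt strain, at passages 20 to 25. The 2 control libraries came from cells transfected with an EGFP plasmid (pRP[Exp]-CMVE>EGFP), and the 2 ERRγ libraries from cells transfected with an ERRγ plasmid (pRP[Exp]-EGFP >ERR[gamma]). Both groups received 8.3 µg of plasmid and 16 µL of a liposomal reagent, and untransfected cells were not analysed here. The labels call the libraries of a group biological replicates; the share of cells that took up plasmid is not stated.

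Mammalian mitochondria keep a small circular genome of their own. Its protein genes all encode subunits of the respiratory chain and of ATP synthase, and all but mt-Nd6 are cut from long precursor RNAs transcribed from the same DNA strand. mt-Nd4 encodes a proton-pumping membrane subunit of complex I, mt-Cytb the cytochrome b of complex III, and mt-Co1 the catalytic subunit of cytochrome c oxidase, complex IV. In β cells, respiration of glucose-derived fuel raises ATP and so triggers insulin release. ERRγ is an orphan nuclear receptor known for driving nuclear genes of oxidative metabolism. Stretches of mitochondrial DNA have also been copied into the nuclear chromosomes in the course of evolution. Gm11410 is a nuclear copy of mt-Cytb, and how it arose was not tested.

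On GRCm38, mt-Nd4 (ENSMUSG00000064363) lies at chrM:10167-11544, mt-Co1 (ENSMUSG00000064351) at chrM:5328-6872 and mt-Cytb (ENSMUSG00000064370) at chrM:14145-15288, each on the plus strand as 1 exon. The first 7 bases of mt-Nd4 overlap the end of mt-Nd4l on the same strand, and the last 3 bases of mt-Co1 overlap the tRNA gene mt-Ts1 on the opposite strand. Gm11410 (ENSMUSG00000083219) lies at chr4:80003989-80005131 on the plus strand and is annotated as a processed pseudogene of 1 exon. The transcript lengths are 1378 bases for mt-Nd4, 1545 for mt-Co1, 1144 for mt-Cytb and 1143 for Gm11410, and the deposited RPKM values, reads scaled by transcript length and library size, rest on the same lengths. Counting is not stated to use strand, so reads from the opposite strand of the mitochondrial genome cannot be told apart from those of the genes.

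The ends of the mitochondrial genes, read 5′ to 3′ from the GENCODE M21 transcripts, are shown because some of them stop short of a whole codon. The capitals mark the last whole or partial triplet.
mt-Nd4: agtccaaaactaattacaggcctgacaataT
mt-Co1: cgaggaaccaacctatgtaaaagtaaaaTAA
mt-Cytb: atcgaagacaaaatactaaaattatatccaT
The stretches cover chrM:11514-11544, chrM:6842-6872 and chrM:15258-15288. mt-Co1 ends in a complete TAA, whereas mt-Nd4 and mt-Cytb each end in a single T, which is known to become a stop codon only when the poly(A) tail is added.

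In the GRCm38 annotation, Gm11410 could be told apart from mt-Cytb by sequence along its whole length. Whether the NIT-1 cells carry the same bases in the genes and their copies was not tested. Over 1143 bases aligned without a gap, the genes differed at 82 positions, an identity of 92.8%. Of these differences 68 were transitions and 14 transversions, and 64 of the 82 (78.0%) fell on position 3 of a mt-Cytb codon, against 16 on position 1 and 2 on position 2. The 120-base stretch with the most differences, 13, is shown because it carries the letters by which a read can be placed, with each differing base in capitals.
mt-Cytb: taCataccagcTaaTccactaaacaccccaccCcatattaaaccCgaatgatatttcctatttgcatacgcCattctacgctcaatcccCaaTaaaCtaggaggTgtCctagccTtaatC
Gm11410: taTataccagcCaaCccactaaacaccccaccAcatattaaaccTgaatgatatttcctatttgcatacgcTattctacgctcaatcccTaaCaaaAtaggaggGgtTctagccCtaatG
These are chrM:14910-15029 and chr4:80004754-80004873, both on the plus strand. The longest stretch without a difference was 47 bases, from base 256 to base 302 of mt-Cytb (chrM:14400-14446): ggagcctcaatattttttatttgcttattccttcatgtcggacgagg. Every window of 151 bases, the length of a sequenced mate, held at least 5 differences, with a median of 11 and a highest value of 15.

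The reading frame of the gene is interrupted in the copy. mt-Cytb starts with ATG and has no TAA, TAG, AGA or AGG in frame in its 381 triplets, while Gm11410 starts with GTG and has a TAA at triplet 151. The triplet stands in capitals in the 27 bases around it.
mt-Cytb: acaaacctcctaTCAgccatcccatat
Gm11410: acaaacctcctaTAAgctattccatac
These are chrM:14583-14609 and chr4:80004427-80004453. Gm11410 has 10 in-frame TGA triplets and mt-Cytb has 11. Mitochondria read this triplet as tryptophan and cytosolic ribosomes read it as a stop.

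The other members have nuclear copies that are closer to them. The first 876 of the 1378 bases of mt-Nd4 (63.6%) are identical to Gm28439, an unprocessed pseudogene at chr1:24611535-24612410 on the minus strand, which has no row in the tables. The place where the copy ends is shown over 120 bases (chrM:10983-11102), with the bases beyond the end of Gm28439 in capitals.
mt-Nd4: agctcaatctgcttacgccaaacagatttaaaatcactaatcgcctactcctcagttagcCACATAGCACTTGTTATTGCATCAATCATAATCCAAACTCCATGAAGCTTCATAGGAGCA
mt-Co1 has a full-length copy in the tables, Gm13340, an unprocessed pseudogene at chr2:22588103-22589647 on the minus strand, inside the gene Myo3a, which runs on the opposite strand. It differed from mt-Co1 at 37 of 1545 positions (identity 97.6%), 31 of them at codon position 3. The 120 bases with the most differences, 6, show how few letters separate the pair, with the differing bases in capitals.
mt-Co1: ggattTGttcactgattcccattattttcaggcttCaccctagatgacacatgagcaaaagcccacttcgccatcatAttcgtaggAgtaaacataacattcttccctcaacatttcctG
Gm13340: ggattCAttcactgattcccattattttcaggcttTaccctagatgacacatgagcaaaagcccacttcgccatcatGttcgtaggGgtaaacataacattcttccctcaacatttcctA
These are chrM:6501-6620 and chr2:22588355-22588474, the latter written along the minus strand. Some windows of 151 bases held a single difference between the pair, the median was 4, and the longest identical stretch was 148 bases. A further copy, Gm29216 on chromosome 1, matches the last 483 bases of mt-Co1 with 1 mismatch and has no row in the tables.

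**Figure D1:**
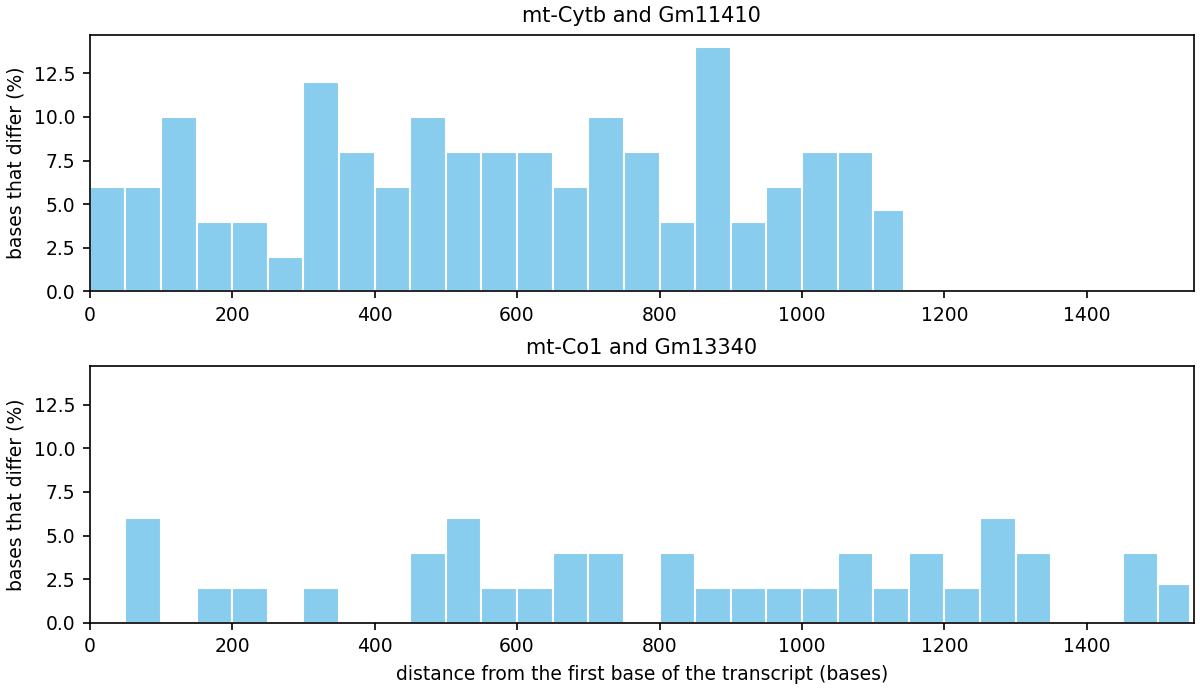
Percentage of bases that differ between an mtDNA gene and its listed nuclear copy, in consecutive 50-base bins (the last bin is shorter), against the distance from the first base of the transcript. Between mt-Cytb and Gm11410 (upper panel) every bin holds a difference and the bins range from 2% to 14%, while between mt-Co1 and Gm13340 (lower panel) the bins range from 0% to 6%.

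The libraries held 16605943 to 18769899 reads, as recovered from reads, RPKM and length, and the named rows took up 6.26% to 7.62% of them. How the rows were selected is not stated. The groups did not overlap in RPKM in 355 of the 406 rows (87.4%), so a choice made on these same libraries cannot be told apart from an effect, and no direction in the rows is independent evidence. Reads of the transfected gene followed the labels: its more abundant Esrrg transcript had 0.232, 0, 141 and 78.6 RPKM (control replicates 1 and 2, then ERRγ replicates 1 and 2), and the other, Esrrg-203, had 0, 0.355, 8.42 and 40.7 RPKM. None of 16 β cell markers had a row, nor did any of 5 markers of other islet cells, 7 of fibroblasts, 6 of leukocytes, and 6 of acinar and duct cells, so the cell type label could not be checked. Replicates of a group were distinct libraries, since their unique read counts differed with a chi-square of 71.6 per degree of freedom between the controls and 10.2 between the ERRγ libraries.

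The counted levels of the 4 genes differed widely, and in the same order in all 4 libraries. In RPKM, a level per length, mt-Co1 was highest, followed by mt-Cytb, Gm11410 and mt-Nd4. The ratio of mt-Co1 to mt-Nd4 was 21.9 and 20.8 in control replicates 1 and 2 and 22.9 and 27.1 in ERRγ replicates 1 and 2. The ratio of mt-Cytb to mt-Nd4 was 7.51, 9.20, 8.81 and 11.0 in the same order of libraries. Of the 151-base windows, 59.1% of those of mt-Nd4 occur in Gm28439 and 23.6% of those of mt-Co1 in Gm29216. For mt-Cytb 0 windows occur in another transcript. How shared reads were assigned is not stated, so these ratios of levels may depend on the counting. The neighbours mt-Cytb and Gm11410 did not overlap within either group, although the highest Gm11410 value (485 RPKM, control replicate 1) exceeded the lowest mt-Cytb value (459 RPKM, ERRγ replicate 2).

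mt-Nd4, of complex I, was the lowest member, and with library totals it had the largest fitted difference between the groups of the 4. Control replicates 1 and 2 had 1900 and 1399 mt-Nd4 reads, which is 73.5 and 60.1 RPKM. ERRγ replicates 1 and 2 had 1276 and 1009 reads, which is 55.8 and 41.9 RPKM. Both ERRγ libraries lay below both controls, by a gap of 4.33 RPKM, and such a separation held for 45.6% of all 406 rows. The spread within each group was beyond counting error: replicate 1 stood above replicate 2 by a ratio of 1.22 in the controls (95% counting interval 1.14 to 1.31) and of 1.33 in the ERRγ libraries (1.22 to 1.45). The group means were 66.8 ± 9.45 and 48.8 ± 9.79 RPKM (SD, n = 2), so mt-Nd4 was 26.9% lower in the ERRγ mean. The size of this difference depended on the scaling, and mt-Nd4 was not called in all reads, as given below. Were the difference to hold, bulk libraries such as these could not tell a change in the make-up of the cells from less RNA per cell. Fewer mitochondria and less RNA per mitochondrion could not be told apart either.

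mt-Co1, of complex IV, was separated more between the controls than between the groups. Its level was 1607 RPKM (46607 reads) in control replicate 1 and 1247 RPKM (32556 reads) in control replicate 2. The ERRγ replicates, in the same order, gave 1274 RPKM (32692 reads) and 1135 RPKM (30638 reads). Control replicate 1 was high, and control replicate 2 lay between the ERRγ libraries, so the groups overlapped. The means were 1427 ± 255 RPKM for control and 1205 ± 98.2 RPKM for ERRγ (SD, n = 2). The range of the controls was 1.62 times the difference between these means, which was 15.6% of the control mean. The controls stood at a ratio of 1.29 (1.27 to 1.31), far outside counting error.

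mt-Cytb, of complex III, had the closest controls. The controls gave 552 RPKM (11850 reads) and 553 RPKM (10685 reads), and the ERRγ libraries 491 RPKM (9333 reads) in replicate 1 and 459 RPKM (9179 reads) in replicate 2. The controls agree within counting error (ratio 0.998, interval 0.972 to 1.02), and both ERRγ libraries lay below them by a gap of 60.6 RPKM. Of all 406 rows, 45.6% likewise had both ERRγ libraries below both controls. The ERRγ mean, 475 ± 22.6 RPKM, was 13.9% lower than the control mean of 552 ± 0.673 RPKM (SD, n = 2 each).

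Gm11410, the nuclear copy, stood at 0.649 to 0.879 of the level of mt-Cytb itself. The controls gave 485 RPKM (10402 reads) in replicate 1 and 359 RPKM (6928 reads) in replicate 2, and the ERRγ libraries 367 RPKM (6962 reads) and 335 RPKM (6683 reads). Control replicate 1 was again high, control replicate 2 lay between the ERRγ libraries, and the groups overlapped. The means were 422 ± 89.2 and 351 ± 22.7 RPKM (SD, n = 2).

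**Figure D2:**
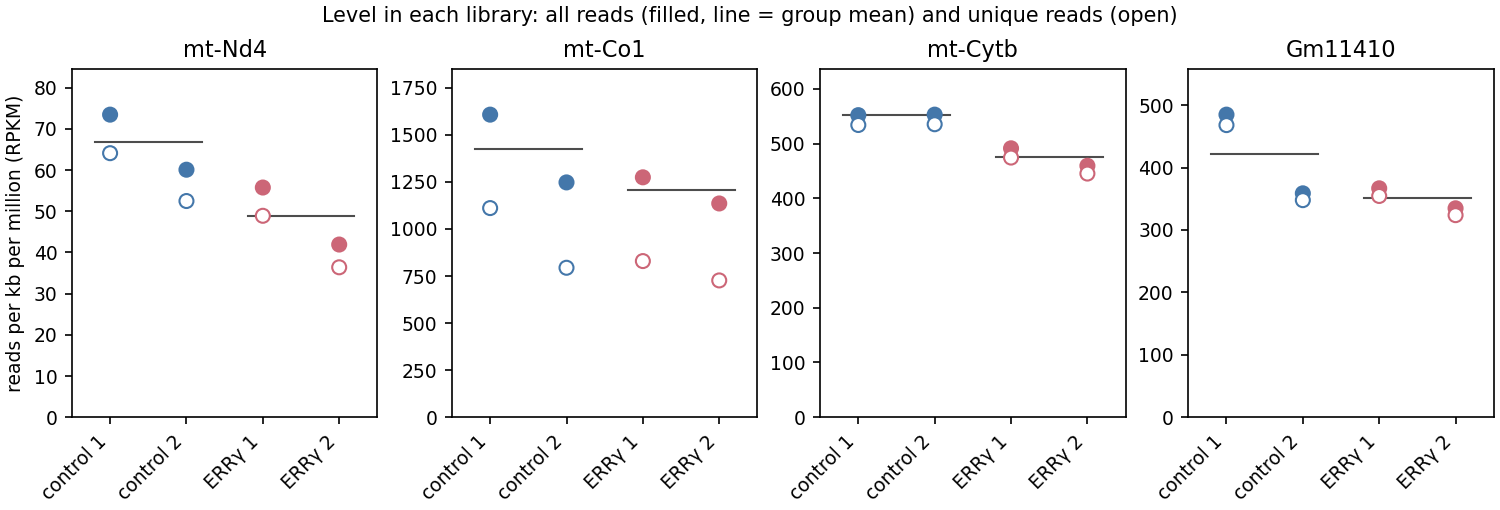
RPKM of the 4 genes in each library, each panel with its own axis from 0. Filled points are all reads with a line at the group mean, and open points are reads counted as unique on the same scale. The ERRγ libraries lie below both controls for mt-Nd4 and mt-Cytb, as they do for 45.6% of all 406 rows. For mt-Co1 and Gm11410 control replicate 1 stands above the other libraries and control replicate 2 lies among the ERRγ libraries.

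Most reads of the members were counted as unique. The unique share was 96.7%, 96.8%, 96.6% and 96.9% for mt-Cytb in control replicates 1 and 2 and ERRγ replicates 1 and 2, and 96.5%, 97.0%, 96.7% and 96.7% for Gm11410. These shares did not separate the groups. Of the 993 windows of 151 bases in Gm11410 and the 994 in mt-Cytb, 0 occur in any other annotated transcript, so no full-length mate without a mismatch could match both genes. Whether the authors' aligner placed mitochondrial reads with mismatches on the copy was not tested. For mt-Nd4, 726 of 1228 windows (59.1%) occur in Gm28439, yet 86.8% to 87.7% of its reads were counted as unique. For mt-Co1, 329 of 1395 windows (23.6%) occur in Gm29216, and the unique share was 69.1% and 63.7% in control replicates 1 and 2 and 65.1% and 64.0% in ERRγ replicates 1 and 2. Control replicate 1 thus stood apart in the unique share of mt-Co1 as well as in its level (interval of the share 68.7% to 69.5%, against 63.1% to 64.2% in control replicate 2, Wilson, counting error only). How the authors' counting defined a unique read is not stated.

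Gm11410 followed mt-Co1 rather than mt-Cytb across the libraries. The ratio of Gm11410 to mt-Cytb was 0.879 and 0.649 in control replicates 1 and 2 and 0.747 and 0.729 in ERRγ replicates 1 and 2, so its highest value was 1.35 times its lowest and both ERRγ values lay between the controls. The ratio of Gm11410 to mt-Co1 was 0.302, 0.288, 0.288 and 0.295, with a highest value 1.05 times the lowest. In unique reads per kilobase the ratio to mt-Co1 was 0.421, 0.438, 0.427 and 0.446. The copy of mt-Co1 did not follow its own gene in this way: Gm13340 stood at 0.409, 0.497, 0.454 and 0.494 of mt-Co1, and at 1.19, 1.12, 1.18 and 1.22 of mt-Cytb. These ratios are descriptions over 4 libraries, and both values of a ratio share the library and its depth.

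Likeness of profile over the 4 libraries was measured as the distance between log2(RPKM + 1) values centred on their mean, among 198 other rows with a mean of at least 10 RPKM. The nearest row to mt-Co1 was Gm11410 and the nearest to Gm11410 was mt-Co1, at a distance of 0.056, followed for both by Ywhaz-204, a 14-3-3 adaptor protein (0.112 and 0.136). The nearest to mt-Cytb were Ywhah, also a 14-3-3 protein (0.048), and Gbp2, an interferon-induced GTPase (0.078). mt-Cytb ranked 25 among the rows nearest to Gm11410. The nearest to mt-Nd4 were Cald1-204, an actin-binding caldesmon (0.179), and Gm11427-203 (0.179). Of the listed mtDNA genes, mt-Nd1, of complex I, ranked 9, mt-Co1 20 and mt-Cytb 40 by distance from mt-Nd4. With 4 libraries such ranks describe these libraries only.

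**Figure D3:**
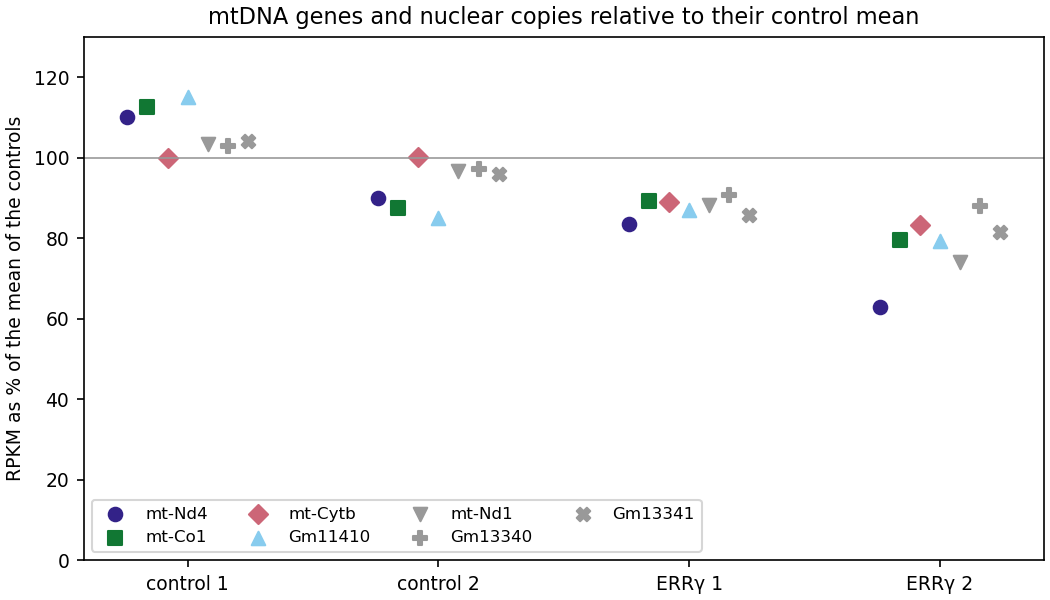
RPKM of the 4 genes (coloured) and of the other listed mtDNA gene and nuclear copies (grey) in each library, as a percentage of the mean of the controls (line at 100%). mt-Co1 and Gm11410 sit together at 113% and 115% in control replicate 1 and at 87.4% and 85.1% in control replicate 2, while mt-Cytb stays at 99.9% and 100.1%.

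The test of ERRγ against control was edgeR's quasi-likelihood test over all rows, run on all reads and on unique reads with the recovered library sizes. All 4 members had enough reads for both. In all reads the log2 fold change was −0.45 ± 0.23 (SE) for mt-Nd4, −0.24 ± 0.15 for mt-Co1, −0.22 ± 0.07 for mt-Cytb and −0.27 ± 0.16 for Gm11410. None of the 4 passed the edgeR test (adjusted p = 0.180, 0.225, 0.0864 and 0.235), where 6.67% of the 375 tested rows passed, 5.6% as lower and 1.07% as higher. All 4 fold changes were below 0, as were 53.3% of those tested. At an unadjusted p under 0.05 there was 1 of 4 members, mt-Cytb, against 41.1% of all tested rows. DESeq2 likewise called 1 of 4, mt-Cytb (adjusted p = 0.0104), against 64.3% of the rows, so both counts are below the share of all rows. The median of the members was −0.26, and that of all 375 rows was −0.27. Control replicate 1 or 2 moved the all-read values: mt-Co1 was at −0.05 without control replicate 1 and −0.42 without control replicate 2, and Gm11410 at −0.03 and −0.47. For mt-Nd4 the values ranged from −0.67 without ERRγ replicate 1 to −0.26 without ERRγ replicate 2.

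In unique reads, as the authors counted them, mt-Nd4 was the 1 member called. Its log2 fold change was −0.45 ± 0.19 (SE, edgeR, adjusted p = 0.0399), beside −0.29 ± 0.13 for mt-Co1 (0.0589), −0.22 ± 0.14 for mt-Cytb (0.139) and −0.27 ± 0.15 for Gm11410 (0.106). Of the 121 tested rows 60.3% were called, 51.2% as lower and 9.09% as higher, so 1 of 4 members is below the share of all rows. All 4 members were below 0, as were 71.9% of the tested rows. The median was −0.28 for the members and −0.38 for all 121 rows. Since 59.1% of the 151-base windows of mt-Nd4 also occur in Gm28439, its reads counted as unique need not come from mt-Nd4 alone. Leaving out control replicate 1 ended the mt-Nd4 call with a smaller fold change (−0.30, edgeR, adjusted p = 0.156), as did leaving out ERRγ replicate 2 (−0.25, 0.531). Without ERRγ replicate 1 the call was lost although the fold change was larger, −0.68 ± 0.32 (SE, edgeR, adjusted p = 0.155). Without control replicate 1 the fold changes of mt-Co1 and Gm11410 shrank to −0.03 and −0.04 on the log2 scale.

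With unique reads, the sign for 3 of the 4 members turned with the scaling. With TMM factors, which assume that most listed rows do not differ, the unique-read fold change was −0.11 for mt-Nd4 but 0.05 for mt-Co1, 0.13 for mt-Cytb and 0.08 for Gm11410, none of them called (edgeR, adjusted p = 0.668, 0.823, 0.456 and 0.721). TMM moved the unique-read fold change of all rows by a median of 0.34 and the all-read one by 0.16. In all reads under TMM the 4 members stayed negative, between −0.29 for mt-Nd4 and −0.05 for mt-Cytb. RPKM in both ERRγ libraries was below both controls for 2 of the 4 members, mt-Nd4 and mt-Cytb, and this held for 45.6% of all 406 rows.

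**Figure D4:**
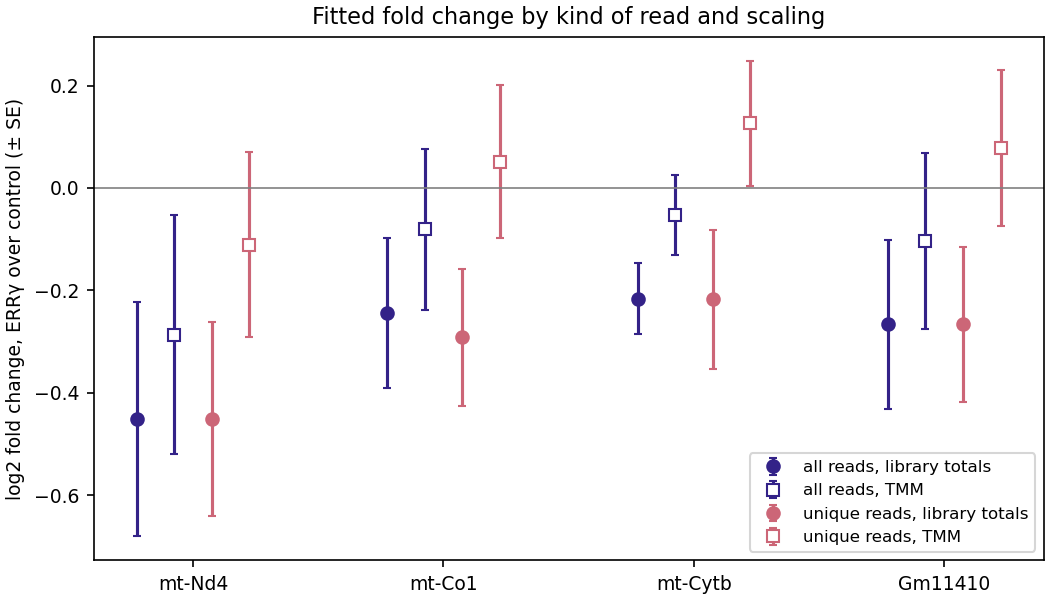
Fitted log2 fold change of ERRγ over control with its standard error for each gene, from all reads (dark) or unique reads (red), with library totals (filled circles) or TMM (open squares). All 8 values with library totals are negative, and with TMM the unique-read values of mt-Co1, mt-Cytb and Gm11410 lie above 0.

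Ratios within a library do not depend on library size. The log2 ratio of mt-Co1 to mt-Nd4 was 4.41 in the control mean and 4.64 in the ERRγ mean, a difference of 0.22 (exact permutation p = 0.333, two-sided, the smallest that 2 against 2 libraries allow). In unique reads the ERRγ values of this ratio, 17.0 and 20.0, overlapped with those of the controls, 17.3 and 15.1 (exact permutation p = 0.667). Leaving out 1 library at a time, this difference ranged from 0.10 without ERRγ replicate 2 to 0.35 without ERRγ replicate 1. The log2 ratio of mt-Cytb to mt-Nd4 differed by 0.24 (exact permutation p = 0.667). It differed by 0.084 without ERRγ replicate 2 and 0.095 without control replicate 1, and by 0.39 without control replicate 2 and 0.40 without ERRγ replicate 1. The log2 ratio of Gm11410 to mt-Cytb differed by −0.03 (exact permutation p = 1), and by 0.18 without control replicate 1 and −0.25 without control replicate 2. No ratio between members could therefore be called different with these libraries.

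Together the 3 mitochondrially encoded members took up 0.322% (95% Wilson interval 0.319% to 0.324%) and 0.264% (0.262% to 0.267%) of the reads of control replicates 1 and 2. In ERRγ replicates 1 and 2 they took up 0.261% (0.258% to 0.263%) and 0.234% (0.231% to 0.236%). Control replicate 1 stood apart, and the interval of control replicate 2 overlaps that of ERRγ replicate 1. The difference of the means was −0.0456 percentage points (exact permutation p = 0.333, two-sided), and −0.0170 without control replicate 1. As a share of the reads of the named rows only, the 3 members held 4.22% and 3.52% in control replicates 1 and 2. In ERRγ replicates 1 and 2 this share was 4.07% and 3.74%, so on this scale the groups overlapped.

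Of the 13 protein genes of the mitochondrial genome, 4 had a row, the remaining one being mt-Nd1, a further membrane subunit of complex I. mt-Nd1 reads were 100% unique and gave 437 and 408 RPKM in the controls against 373 and 313 RPKM in the ERRγ libraries. Both ERRγ libraries thus lay below both controls, as in 45.6% of all 406 rows. mt-Nd1 was not called in either test (edgeR, adjusted p = 0.120 in all reads and 0.0694 in unique reads). Although both encode subunits of complex I, mt-Nd1 was 5.95 to 7.47 times as high per length as mt-Nd4. How reads shared between loci were assigned is not stated, and mt-Nd4 shares 59.1% of its windows with Gm28439 while mt-Nd1 shares none, so this ratio of levels may depend on the counting. The mt-Co1 copy Gm13340 stood at 657, 619, 578 and 561 RPKM in the same order of libraries, and Gm13341, an adjacent copy of mt-Co2 at chr2:22587291-22587962, at 973, 897, 801 and 761 RPKM. Neither copy was called in either edgeR test (adjusted p = 0.141 and 0.0762 in all reads, 0.243 and 0.0708 in unique reads).

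Among nuclear partners of these transcripts little was listed. Of 25 genes for transcription, replication and RNA processing in mitochondria, 23 could be matched by symbol and 0 had a row, and the same held for the 2 mitochondrial rRNA genes and for complex II and the nuclear subunits of complexes III and IV. Complex I had 2 of 37 nuclear genes, both low: Ndufa6-203, a retained-intron transcript of an accessory subunit, stood at 0.740, 1.51, 5.16 and 5.83 RPKM, and Ndufs6, a further accessory subunit, at 0, 3.33, 12.6 and 8.87 RPKM. Both lay above both controls in the ERRγ libraries, as did 41.9% of all rows, and neither passed the all-read test (edgeR, adjusted p = 0.152 and 0.303). Their unique reads numbered 0 in every library for Ndufa6-203, and 0, 0, 4 and 6 for Ndufs6. ATP synthase had 2 of 18 genes (17 matched by symbol), both as transcripts annotated as non-coding: Atp5h-207 stood at 0.254, 0, 2.44 and 3.68 RPKM and Atp5b-206 at 0.780, 74.4, 19.0 and 3.11 RPKM.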

How the data were processed

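Each library has a table of RPKM values, unique gene read counts and total gene read counts, all 3 made by the authors and deposited per the file headers. The build is mm8 per the submitters' processing notes. No source used here names the aligner, the counter or the annotation, or says whether a read is 1 mate or 1 fragment. Groups and replicate numbers come from the sample titles. Library sizes were recovered from total reads, RPKM and the annotated length of mt-Co1; all 406 named row lengths then came out whole within 0.01 bases, and 397 matched exactly 1 GENCODE M21 transcript (GRCm38) of their gene. No coordinates of mm8 were used. The 3 rows without a gene ID held 0.0121% to 0.0332% of listed reads and were left out. edgeR 4.0.16 (R 4.3.3, quasi-likelihood, filterByExpr, library sizes without TMM, Benjamini-Hochberg over all tested rows, threshold 0.05) was run on total and on unique counts. It was also run on simulated data with less spread than these libraries and larger changes than those of the members. That check therefore does not show how the test performs on these data. The edgeR p-values rest on the spread between 2 libraries per group, or within the remaining pair where 1 library was left out. That spread was estimated partly from all tested rows, so the p-value of a member does not rest on its own counts alone. The common dispersion, the estimate over all tested rows, was 0.534 in all reads and 0.0138 in unique reads. Each SE is the absolute fold change over the square root of F. DESeq2 1.42.0, TMM, other filters, a replicate block and leaving out libraries were alternatives; summing a gene with its copy was added after seeing the data. Copies were found with blastn 2.17.0 (E-value 1e-10) among GENCODE M21 transcripts, which also gave all sequences. Intervals cover counting error only; a 1 kb row with 3 reads has 0.160 to 0.181 RPKM. Named rows were the members, Esrrg, listed rows of the mitochondrial lists, other copies of mtDNA genes, and the 2 nearest profiles per member. The members, lists and tests were chosen with earlier results of these data known.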

Additional observations from a re-analysis of the deposited data

How the results depend on the processing

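Over all rows, the all-read test called 25 of 375 rows, against 1 with TMM, 241 with DESeq2, 1 without a filter and 42 with a mean count of at least 50. Dropping 1 library at a time left 1 to 2. In unique reads 73 of 121 rows passed (62 lower, 11 higher), against 41 with TMM (12 lower, 29 higher), 23 without a filter, and 10 to 98 when 1 library at a time was dropped (98 of 135 without control replicate 2, 67 of 129 without control replicate 1, 14 of 135 and 10 of 137 without ERRγ replicates 1 and 2). The replicate numbers are not said to pair the libraries, and deviations of same-numbered libraries correlated at −0.04 in all reads and 0.21 in unique reads. With the replicate number as a block, 1 row was called in all reads and 71 of 121 in unique reads, where mt-Co1 passed (−0.27, edgeR, adjusted p = 0.0294) and mt-Nd4 remained called.

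For the members, the all-read fold changes stayed negative under every alternative run, and the 1 call gained was mt-Cytb with DESeq2 (−0.22). In unique reads the sign turned with TMM for mt-Co1 (0.052), mt-Cytb (0.13) and Gm11410 (0.078). The mt-Nd4 call was lost with TMM (−0.11) and without a filter (−0.45, edgeR, adjusted p = 0.140), and mt-Co1 passed with a mean count of at least 50 (−0.29, 0.0329), as did 66 of 100 rows. Leaving out 1 library at a time, the unique-read fold change ranged from −0.68 to −0.25 for mt-Nd4, from −0.51 to −0.029 for mt-Co1, from −0.26 to −0.17 for mt-Cytb and from −0.46 to −0.036 for Gm11410. All 4 members passed without control replicate 2 (edgeR, adjusted p = 0.00251 for mt-Nd4, 5.67e-06 for mt-Co1, 0.0256 for mt-Cytb and 0.000121 for Gm11410), and mt-Cytb also without control replicate 1 (0.0399). In these fits the lone control is assumed to vary like the ERRγ pair, which alone gives the spread, and most rows pass, so the calls say little about the members. Summing the reads of mt-Cytb with Gm11410 and of mt-Co1 with Gm13340, added after seeing the data, gave −0.24 and −0.22 in all reads and −0.24 and −0.24 in unique reads, none of them called (edgeR, adjusted p = 0.130, 0.196, 0.0933 and 0.0722). The group difference in the log2 ratio of Gm11410 to mt-Cytb was −0.03 with all libraries. It changed sign without control replicate 1 (0.18) and was −0.25 without control replicate 2. The cause of these changes was not tested.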
